A study of Mus musculus with 3 samples.

Results

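The genes described here are 34 members of the glycolytic pathway and of the cellular response to low oxygen, chosen by name from the 32285 genes of the count matrices and not by their values. They comprise 21 glycolysis members (glucose transporters, glycolytic enzymes, PFK2 regulators and lactate transporters), 12 members known as hypoxia-induced genes, and the regulator Hif1a. They were read in immune cells sorted by flow cytometry for CD45, the pan-leukocyte surface protein, from hearts of C57BL/6J mice aged 8 to 9 weeks. The groups were labelled MI-E, MI and Sham, with 1 single-cell library each. MI is myocardial infarction, as the series title spells it. The letter E is not expanded in the labels, and the surgery text, ligation of the left coronary artery through a thoracotomy under isoflurane, is the same for all 3 groups. MI-E and MI are called the infarct libraries below, from their labels alone. The time after surgery and the number of hearts pooled are not given in the sources used here. With 1 library per group no difference has a replicate check, no test was possible between groups, and every interval below covers counting error only.

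Glycolysis splits glucose into pyruvate in the cytosol and yields ATP without oxygen. Glucose enters through GLUT transporters, is trapped by hexokinase, is committed by phosphofructokinase, and leaves the pathway as lactate through monocarboxylate transporters. Under low oxygen the prolyl hydroxylases that mark HIF-1α for destruction slow down, and HIF-1α then drives transcription of most glycolytic genes and of genes that restrain mitochondria, store lipid and modify collagen. In macrophages HIF-1α also accumulates in response to inflammatory signals at normal oxygen, and activated macrophages and neutrophils are known to rely on glycolysis.

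The matrices held 12707 barcodes for MI-E, 9095 for MI and 11357 for Sham, with medians of 7287, 9604 and 2727 UMIs (unique molecular identifiers, each a counted RNA molecule) per barcode. After filters on genes, mitochondrial share and predicted doublets, 11989, 8169 and 10079 cells remained. Between 26 and 45 barcodes were shared by any pair of libraries. Clusters were formed without the 34 members and without the related genes named below. Monocyte-macrophage-like cells numbered 6753 in MI-E, 6636 in MI and 3853 in Sham. All 14 macrophage markers were detected in that class in each library. Different clusters made up the class. A Lyve1-led cluster held 1601 of the Sham cells. Another, led by Mgl2 and Lilra5 and named for the MHC class II genes among its leading genes, held 1918. MI-E and MI cells lay mostly in Arg1, Gpnmb, Fcrls, Cfb and Ly6c2 clusters. Levels below are CPM, the UMIs of a gene per 1000000 UMIs of that class in that library. The libraries were counted from the 3′ end of transcripts, so levels are compared between cells for each gene and not between genes.

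The promoters of the members were searched for the core bases that HIF binds. The members were chosen as glycolysis and hypoxia-induced genes, so their share with a match is not independent of that choice. The genes set beside them were not matched for base composition. HIF binds a core of 5 bases, ACGTG or GCGTG, searched here on both strands (reverse complements CACGT and CACGC; the palindrome CACGTG counts as a match on each strand) in RefSeq windows of 300 bases, 250 before and 50 after each start, in GRCm38.p6. Windows were matched for 31 of the 34 members, and 29 of these 31 genes (93.5%) held at least 1 match, beside 12628 of all 27025 genes in the table (46.7%). Gpi1 and Tpi1 held none in their windows. Among matched genes 18 of 20 glycolysis members and 10 of 10 hypoxia-induced members held a match, so the letters did not separate the 2 groups. The 250 bases before the start are shown for 6 members: Hilpda, Bnip3 and Pdk1, which were lower in MI-E than in MI macrophages, Slc2a1 and Slc16a3, which were higher there, and Pgk1, the glycolytic enzyme with the highest ratio of MI over Sham. They are written from 5′ to 3′ on the strand of the gene, with the motif in capitals, and lie at chr6:29272376-29272625 (plus strand, Hilpda), chr7:138909507-138909756 (minus strand, Bnip3), chr2:71872974-71873223 (plus strand, Pdk1), chr4:119108495-119108744 (plus strand, Slc2a1), chr11:120948817-120949066 (plus strand, Slc16a3) and chrX:106186850-106187099 (plus strand, Pgk1). Hilpda and Pdk1 have 2 windows each in the table, of which the 1 with more matches is shown. The other window of Hilpda held 1 match, 27 bases after the start and none before it, and that of Pdk1 held 0.
Hilpda: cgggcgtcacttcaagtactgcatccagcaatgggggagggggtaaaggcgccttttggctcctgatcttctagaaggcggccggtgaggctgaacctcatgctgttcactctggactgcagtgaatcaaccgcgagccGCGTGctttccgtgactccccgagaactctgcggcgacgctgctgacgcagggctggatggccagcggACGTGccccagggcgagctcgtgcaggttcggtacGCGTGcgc
Bnip3: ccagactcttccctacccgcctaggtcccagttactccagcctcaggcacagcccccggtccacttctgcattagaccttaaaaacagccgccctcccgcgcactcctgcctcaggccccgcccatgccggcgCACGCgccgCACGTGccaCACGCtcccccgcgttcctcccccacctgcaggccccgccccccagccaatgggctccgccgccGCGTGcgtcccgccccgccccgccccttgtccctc
Pdk1: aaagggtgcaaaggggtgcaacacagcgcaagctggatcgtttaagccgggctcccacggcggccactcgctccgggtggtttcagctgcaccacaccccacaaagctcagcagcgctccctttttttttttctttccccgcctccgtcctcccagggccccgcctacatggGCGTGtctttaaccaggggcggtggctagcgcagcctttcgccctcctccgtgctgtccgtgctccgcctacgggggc
Slc2a1: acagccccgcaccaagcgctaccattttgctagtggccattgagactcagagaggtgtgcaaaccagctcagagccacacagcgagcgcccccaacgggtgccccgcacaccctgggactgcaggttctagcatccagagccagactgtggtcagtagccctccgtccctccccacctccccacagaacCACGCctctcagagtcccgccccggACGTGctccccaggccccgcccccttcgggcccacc
Slc16a3: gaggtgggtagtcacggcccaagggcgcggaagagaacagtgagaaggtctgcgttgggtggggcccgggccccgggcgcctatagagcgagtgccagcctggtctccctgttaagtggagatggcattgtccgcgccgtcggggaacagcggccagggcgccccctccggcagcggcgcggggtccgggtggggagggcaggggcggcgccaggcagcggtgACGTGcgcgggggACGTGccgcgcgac
Pgk1: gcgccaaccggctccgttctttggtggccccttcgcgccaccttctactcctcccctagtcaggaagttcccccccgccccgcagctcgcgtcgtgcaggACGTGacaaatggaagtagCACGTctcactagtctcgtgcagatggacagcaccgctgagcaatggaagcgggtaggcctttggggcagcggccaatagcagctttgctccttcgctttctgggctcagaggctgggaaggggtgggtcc
The stretch of Bnip3 held 5 matches, that of Hilpda held 3, those of Slc2a1, Slc16a3 and Pgk1 held 2 each, and that of Pdk1 held 1. The match nearest to the start lay 8 bases upstream in Hilpda and 131 bases upstream in Pgk1. A match is a description of the letters and not a measured binding site.

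In monocyte-macrophage-like cells most glycolytic enzymes and hypoxia-induced genes were higher in both infarct libraries than in Sham. Between MI-E and MI the glycolysis members had no common direction, and 8 of the 9 measured hypoxia-induced members were lower in MI-E. Pgk1, Pgam1, Pkm and the lactate exporter Slc16a3 were 3.07 to 4.88 times as high in MI as in Sham, and Hilpda was 6.31 times as high. Relative to MI, the MI-E cells had more of the glucose transporter Slc2a1 and of Slc16a3, and less of Hilpda, Bnip3 and Pdk1. Of the 34 members, 28 reached a mean of 5 CPM over the 3 libraries in this class: 18 glycolysis members, 9 hypoxia-induced members and Hif1a. Such a filter keeps genes that are high in any of the libraries, so the counts below describe the genes that passed it.

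For MI over Sham, 13 of the 18 glycolysis members were at least 1.5-fold higher and 3 at least 1.5-fold lower, with a median log2 ratio of 1.10 on the log2(CPM + 1) scale. Over all 8306 genes at that level, 26.0% were at least 1.5-fold higher and 17.3% at least 1.5-fold lower, with a median of 0.14. Of the 9 hypoxia-induced members 6 were higher and 0 lower, with a median of 1.21. The filter left out Egln3, Ak4 and Adm, of which Adm was lower in both infarct libraries than in Sham. For MI-E over Sham, 13 glycolysis members were higher and 3 lower (median 1.19), and 5 of 9 hypoxia-induced members were higher and 0 lower (median 0.65), where 26.3% of all genes were higher and 18.3% lower. For MI-E over MI, 2 glycolysis members were higher and 0 lower (median 0.03), and 0 hypoxia-induced members were higher and 3 lower (median -0.34), where 4.64% of all genes were higher and 5.83% lower. The MI and Sham libraries each enter a pair of these comparisons, so the comparisons are not independent. Genes of tissue dissociation and heat shock, listed apart from the members, moved with the Sham group: the 19 of them, all detected, summed to 7777 CPM in MI-E, 7185 in MI and 26229 in Sham, and their part in these differences was not tested. Summed macrophage markers stood at 17931, 20040 and 43388 CPM in the same order of libraries, and summed monocyte markers at 3806, 1341 and 467. Markers of other cells were low, with 10 neutrophil markers summing to 344, 162 and 391 CPM and 9 cardiomyocyte markers to 33.7, 19.6 and 103.6 CPM, likewise in the order MI-E, MI and Sham. Fewer positive cells and less RNA per cell cannot be told apart in such sums.

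**Figure D1:**
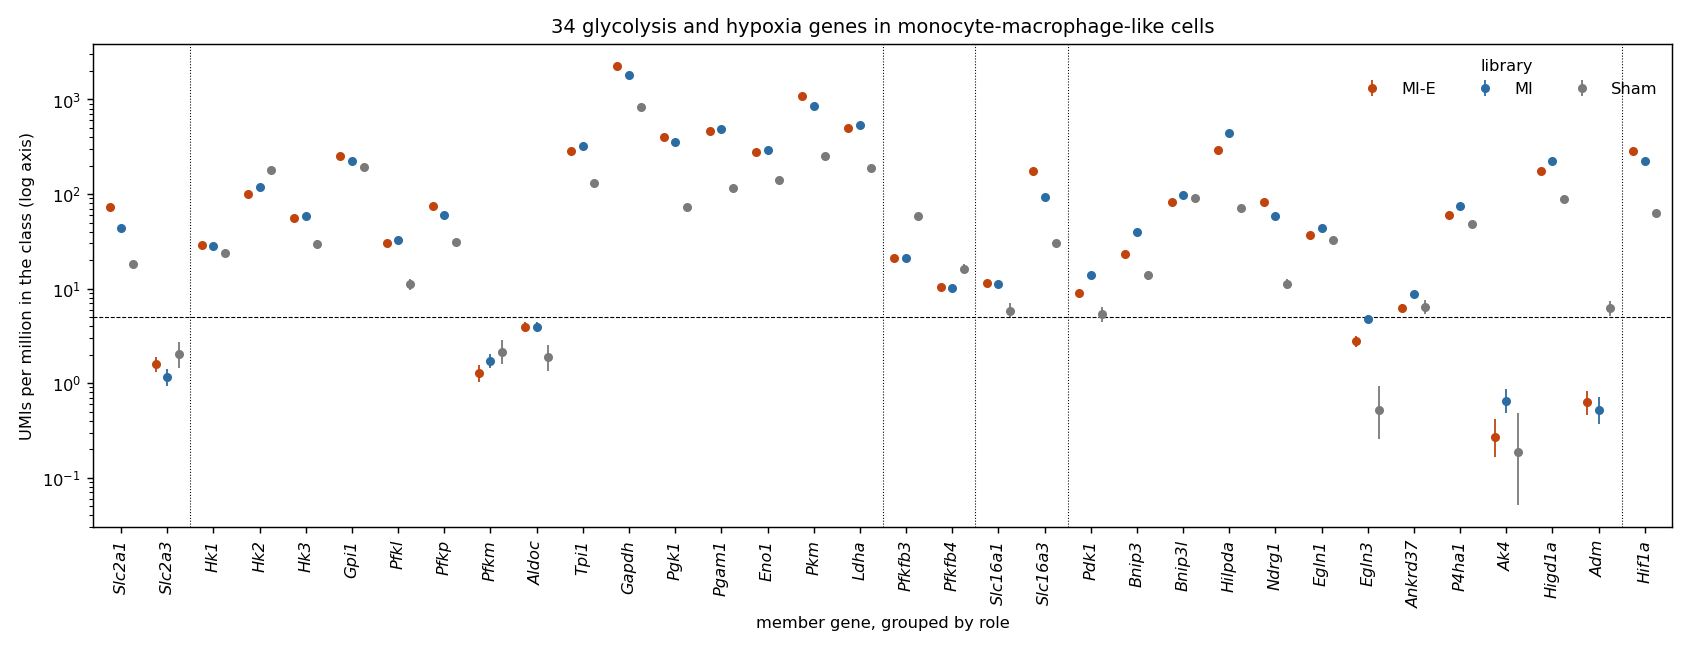
Levels of the 34 members in monocyte-macrophage-like cells, in CPM on a log axis, with 1 point per library and 95% exact Poisson intervals. The dashed line is the 5 CPM level, which the ratios apply to the mean over the 3 libraries. The mean of 6 members lies under it, though a single library can lie above. For Hilpda the MI-E and MI points lie at 292 and 447 CPM, above 70.7 in Sham.

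Slc2a1 encodes GLUT1, the main basal glucose transporter of macrophages. It stood at 72.5 CPM in MI-E, 44.2 in MI and 18.1 in Sham. The 3 intervals did not overlap, and the ratios were 1.64 (95% interval 1.57 to 1.71) for MI-E over MI and 2.44 (2.20 to 2.72) for MI over Sham. Hexokinases, which phosphorylate glucose on entry, did not move together. Hk2, the inducible isoform bound to mitochondria, was lower in the infarct libraries, with 99.4 CPM in MI-E, 119 in MI and 182 in Sham, and a ratio of 0.657 (0.632 to 0.682) for MI over Sham. Hk3, the isoform known from myeloid cells, was at 56.5, 59.0 and 29.9 CPM in MI-E, MI and Sham, a ratio of 1.97 (1.81 to 2.14) for MI over Sham. Hk1, the widely expressed isoform, differed little, with 28.8, 28.1 and 23.9 CPM in MI-E, MI and Sham.

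The steps down to phosphofructokinase differed unevenly between libraries. Gpi1, which turns glucose 6-phosphate into fructose 6-phosphate, had 250.2 CPM in MI-E, 221 in MI and 192 in Sham, a ratio of 1.15 (1.11 to 1.19) for MI over Sham. Of the phosphofructokinase genes, which encode the committing step, Pfkl had 30.4, 32.7 and 11.0 CPM in MI-E, MI and Sham, and Pfkp had 74.5, 60.5 and 30.9 CPM. Both were higher in the infarct libraries, with ratios of MI over Sham of 2.96 (2.59 to 3.40) for Pfkl and 1.96 (1.81 to 2.13) for Pfkp. The muscle isoform Pfkm was below the level used, with 94, 130 and 46 UMIs in MI-E, MI and Sham.

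Tpi1, which interconverts the triose phosphates, had 285 CPM in MI-E, 323 in MI and 129.9 in Sham. Gapdh, which makes NADH from glyceraldehyde 3-phosphate and is often used as a reference gene, had 2253 CPM in MI-E, 1821 in MI and 833 in Sham. It was therefore not level across these libraries, with a ratio of 1.24 (1.23 to 1.25) for MI-E over MI and 2.19 (2.15 to 2.22) for MI over Sham. Pgk1, the first ATP-yielding step, had 401 CPM in MI-E, 357 in MI and 73.3 in Sham, a ratio of 4.88 (4.63 to 5.14) for MI over Sham. Pgam1, the phosphoglycerate mutase, had 465, 491 and 115 CPM in MI-E, MI and Sham, a ratio of 4.26 (4.09 to 4.44). These were the largest ratios of MI over Sham among the glycolytic enzymes measured. Eno1, the enolase, had 281 CPM in MI-E, 294 in MI and 139 in Sham, and its near-identical copy Eno1b took up 11.5, 8.33 and 4.82 CPM there, so a share of its reads is uncertain. Pkm, the pyruvate kinase of most non-hepatic cells, had 1101 CPM in MI-E, 861 in MI and 249.6 in Sham, with ratios of 1.28 (1.26 to 1.29) for MI-E over MI and 3.45 (3.36 to 3.55) for MI over Sham. Ldha, which turns pyruvate into lactate, had 504, 538 and 191 CPM in MI-E, MI and Sham, a ratio of 2.82 (2.73 to 2.91) for MI over Sham. Every enzyme from Tpi1 to Ldha was thus more than 2-fold higher in MI than in Sham, and only Gapdh, Pgk1 and Pkm among them were also higher in MI-E than in MI.

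The PFK2 enzymes set the level of fructose 2,6-bisphosphate, the activator of phosphofructokinase. Both measured genes went in the other direction from most enzymes. Pfkfb3, the inducible isoform with high kinase activity, had 20.8 CPM in MI-E, 21.1 in MI and 58.4 in Sham, a ratio of 0.361 (0.335 to 0.389) for MI over Sham. Pfkfb4 had 10.5, 10.1 and 16.2 CPM in MI-E, MI and Sham, a ratio of 0.623 (0.548 to 0.710). With Hk2 these were the 3 glycolysis members lower in the infarct libraries. With TMM scaling factors, Hk2 (log2 ratio -0.43) and Pfkfb4 (-0.47) were lower in MI than in Sham by less than 1.5-fold. The same held with a pseudocount of 10 CPM (-0.57 and -0.38) and with unnamed clusters scoring as macrophage added (-0.57 and -0.58). As an equal-weight mean over the states shared by MI and Sham, both stood at -0.11. Hk2 also fell short of 1.5-fold at no more than 5% mitochondrial UMIs (-0.53) and with each cell weighing the same (-0.54). Slc16a3 encodes MCT4, the lactate exporter of glycolytic cells, and stood at 177 CPM in MI-E, 93.5 in MI and 30.5 in Sham. Its ratio of MI-E over MI was 1.90 (1.84 to 1.95), and that of MI over Sham 3.07 (2.83 to 3.33). Slc16a1, which encodes MCT1 and carries lactate in either direction, had 11.3, 11.1 and 5.85 CPM in MI-E, MI and Sham.

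**Figure D2:**
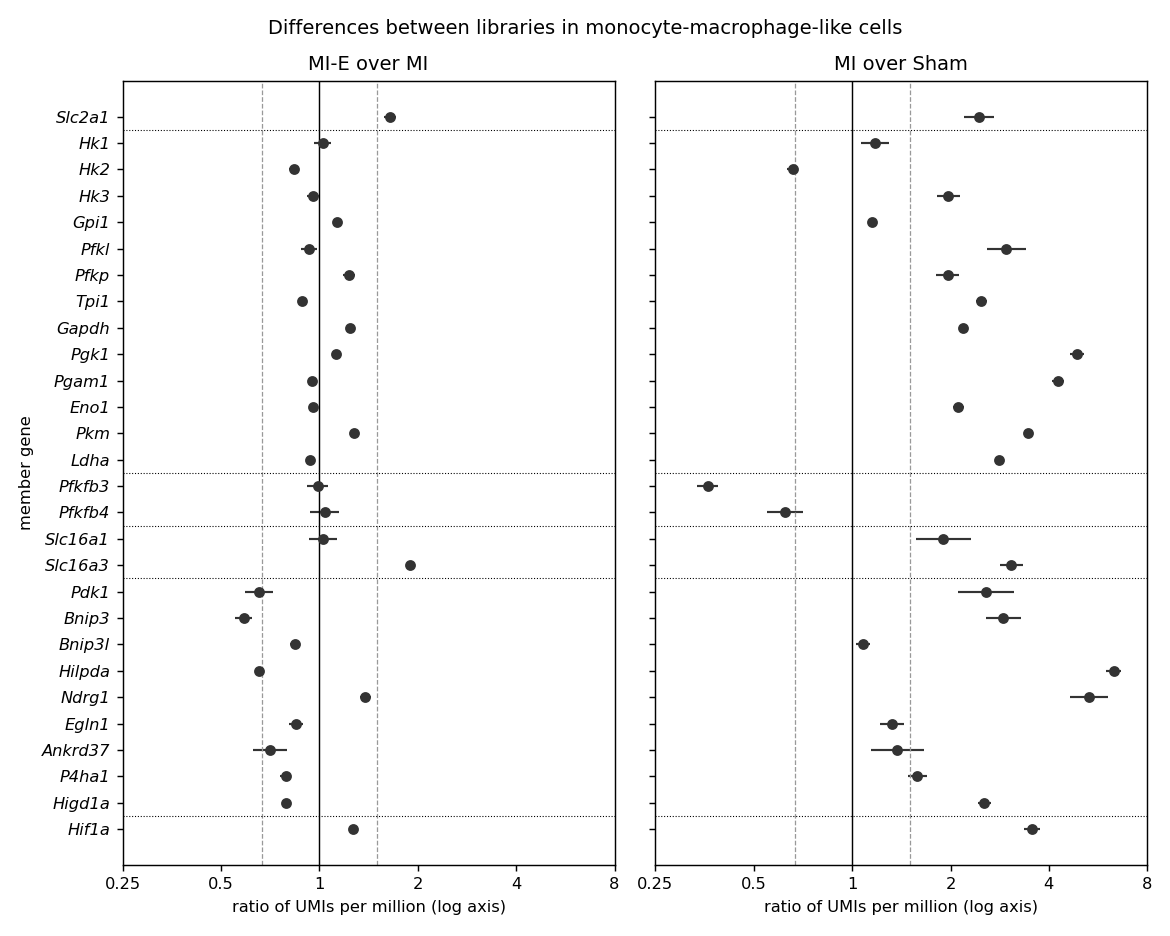
Ratios of CPM for the 28 measured members in monocyte-macrophage-like cells, MI-E over MI on the left and MI over Sham on the right, on a log axis with 95% exact intervals for counting error. Dashed lines mark 1.5-fold in either direction; Slc2a1 and Slc16a3 lie right of it and Hilpda, Bnip3 and Pdk1 left of it for MI-E over MI.

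Of the 9 measured hypoxia-induced members 8 were highest in MI. Hilpda, which inhibits the lipase ATGL and so retains lipid droplets, had 292 CPM in MI-E, 447 in MI and 70.7 in Sham. Its ratio was 6.31 (6.00 to 6.65) for MI over Sham and 0.654 (0.643 to 0.665) for MI-E over MI. Bnip3, a receptor for the removal of mitochondria by autophagy, had 23.5 CPM in MI-E, 40.0 in MI and 13.8 in Sham, with ratios of 2.90 (2.57 to 3.28) for MI over Sham and 0.587 (0.553 to 0.623) for MI-E over MI. Its relative Bnip3l differed little, with 82.6, 98.3 and 91.3 CPM in MI-E, MI and Sham. Pdk1, the kinase that keeps pyruvate out of the mitochondrion, had 9.01 CPM in MI-E, 13.8 in MI and 5.38 in Sham, with ratios of 2.56 (2.11 to 3.14) for MI over Sham and 0.652 (0.591 to 0.720) for MI-E over MI. These 3 genes shared the order MI, MI-E, Sham.

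Higd1a, a mitochondrial protein of respiratory complexes, had 177, 224 and 88.0 CPM in MI-E, MI and Sham, and P4ha1, a collagen prolyl hydroxylase subunit, had 59.5, 75.5 and 47.7 CPM. Both were lower in MI-E than in MI by less than 1.5-fold, with ratios of 0.792 (0.774 to 0.810) and 0.788 (0.757 to 0.819). Egln1, which encodes the oxygen sensor PHD2, had 36.6, 43.2 and 32.6 CPM, and Ankrd37, an ankyrin repeat protein, had 6.21, 8.81 and 6.41 CPM, in MI-E, MI and Sham. Ndrg1, a stress-responsive cytoplasmic protein, departed from the other hypoxia-induced members: it had 81.8 CPM in MI-E, 59.3 in MI and 11.2 in Sham, with ratios of 1.38 (1.33 to 1.43) for MI-E over MI and 5.30 (4.65 to 6.06) for MI over Sham. It was the only one of the 9 measured hypoxia-induced members with a ratio above 1 for MI-E over MI.

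Hif1a transcript, the subunit whose protein is controlled mainly by degradation, stood at 283 CPM in MI-E, 223 in MI and 62.7 in Sham. The intervals did not overlap, with ratios of 1.27 (1.24 to 1.29) for MI-E over MI and 3.56 (3.37 to 3.77) for MI over Sham. MI-E and Sham shared 3 states, Ly6c2, Lyve1 and Treml4, the last with 52 cells in MI-E. As an equal-weight mean over these, the log2 ratio of MI-E over Sham was 0.37 for Hif1a, against 2.16 over the class. It also ended under 1.5-fold for Pgam1 (0.50, against 2.00), Eno1 (0.26, against 1.01) and Higd1a (0.15, against 1.00). All these genes had their lowest ratio in the Treml4 state, at 0.889 for Hif1a, from 38 UMIs in MI-E. In the Ly6c2 state the Hif1a ratio was 1.85. For MI over Sham Hif1a had ratios of 1.54 in the Lyve1 and 1.98 in the Ly6c2 state, both with intervals above 1. The order of libraries of Hif1a was that of Slc2a1 and Slc16a3 and not that of Hilpda and Bnip3. The 6 members with a mean under 5 CPM held few UMIs in this class. Slc2a3, which encodes the high-affinity glucose transporter GLUT3, had 117, 87 and 43 UMIs in MI-E, MI and Sham, Aldoc, an aldolase, had 291, 297 and 40, and Egln3 (PHD3) had 204, 360 and 11. Ak4, a mitochondrial adenylate kinase, had 20, 49 and 4 UMIs, and Adm, the vasodilator adrenomedullin, had 46, 39 and 132. The Sham sum holds the fewest UMIs, so Adm was lower in both infarct libraries, against the direction of most hypoxia-induced members. In the Lyve1 state its ratio of MI over Sham was 0.313, with an interval below 1.

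Genes of neighbouring pathways were read from lists that exclude the 34 members. All 7 pentose phosphate genes were measured, and 6 were at least 1.5-fold higher in MI and 0 lower (median log2 ratio 0.84), led by Pgd, the second NADPH-yielding dehydrogenase of that pathway, at 202 CPM in MI and 94.4 in Sham. Of 8 measured genes that pass pyruvate into the mitochondrion 7 were higher and 0 lower (median 0.67), among them Mpc1, a subunit of the mitochondrial pyruvate carrier, at 227 CPM in MI and 116 in Sham. Of 20 measured further HIF targets 9 were higher and 5 lower (median 0.26). Among all genes 26.0% were higher and 17.3% lower (median 0.14). The further HIF targets thus lay above the background in their share of higher genes, and closer to it in their share of lower genes and their median. Vegfa, the angiogenic growth factor, had 133 CPM in MI-E, 118 in MI and 5.99 in Sham, a ratio of 19.7 (16.5 to 23.6) for MI over Sham, which exceeded that of any member. In MI-E over MI none of the other related lists held a gene past 1.5-fold. The further HIF targets held 3 that were lower, among them Fam162a (70.6 CPM in MI-E, 112 in MI). Of all genes 5.83% were lower and 4.64% higher in that comparison.

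Clusters within the class, called states here and named after some of their leading genes, differed in their levels of the members. In MI-E the Arg1 state (1181 cells, led by Cxcl3, Arg1 and Areg) held the highest level among 9 states for 11 glycolysis members, for Hilpda, Bnip3, Ndrg1 and Egln3, and for Hif1a. In MI the Saa3 state (215 cells, led by Saa3 and Serpinb2) was highest for 10 glycolysis members and 5 hypoxia-induced members, and the Arg1 state (764 cells) for 6 and 4. Sham had 0 cells in the Arg1 and Saa3 states. There the Ly6c2 monocyte state (141 cells) was highest for 9 glycolysis members, and the Treml4 monocyte state (134 cells) and the Lyve1 state (1601 cells) for 5 each. For hypoxia-induced members the Treml4 state was highest for 5, and the Ly6c2 and Lyve1 states for 3 each. Against its whole class in MI, the Saa3 state had a median log2 difference of 0.49 over glycolysis members and 0.76 over hypoxia-induced members, where all genes had 0.12. The MI Arg1 state had 0.38 and 0.44, where all genes had -0.17, and the MI-E Arg1 state had 0.23 and 0.25, where all genes had -0.15. In Sham the Ly6c2 state had 0.44 and -0.29 (all genes -0.24), and the Treml4 state 0.14 and 0.41 (all genes -0.14). Over the MI Arg1 state, the Saa3 state had 4 of 19 glycolysis members at least 1.5-fold higher and 1 lower. It had 1 of 10 hypoxia-induced members higher and 2 lower, where 36.6% of all genes were higher and 8.50% lower. Neither list thus exceeded the share of all genes that was higher. How many of all genes each state was highest for was not counted.

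The Arg1 and Gpnmb states, both absent or nearly absent from Sham (0 and 1 cells), shared a high level of Hilpda. Hilpda had 470 CPM in the Arg1 state of MI-E and 820.2 in that of MI, 397 and 574 in the Gpnmb state, and 63.9, 101 and 46.9 in the Lyve1 state of MI-E, MI and Sham. Relative to the Gpnmb state of the same library, the Arg1 state had 4 of 18 glycolysis members at least 1.5-fold higher and 1 lower in MI-E (all genes 6.96% higher, 19.4% lower), and 4 of 19 higher and 1 lower in MI (all genes 7.85% higher, 14.0% lower). Slc16a3 carried the clearest of these differences, with 224 CPM in the Arg1 state against 91.4 in the Gpnmb state of MI-E, and 167 against 68.0 in MI. The leading genes of the Lyve1 state include the resident macrophage genes Lyve1, Cd163 and Folr2, and the heat shock genes Hspa1a and Hspa1b. Relative to the Lyve1 state, the Arg1 state of MI had 14 of 19 glycolysis members higher and 1 lower (all genes 11.3% higher, 36.7% lower).

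**Figure D3:**
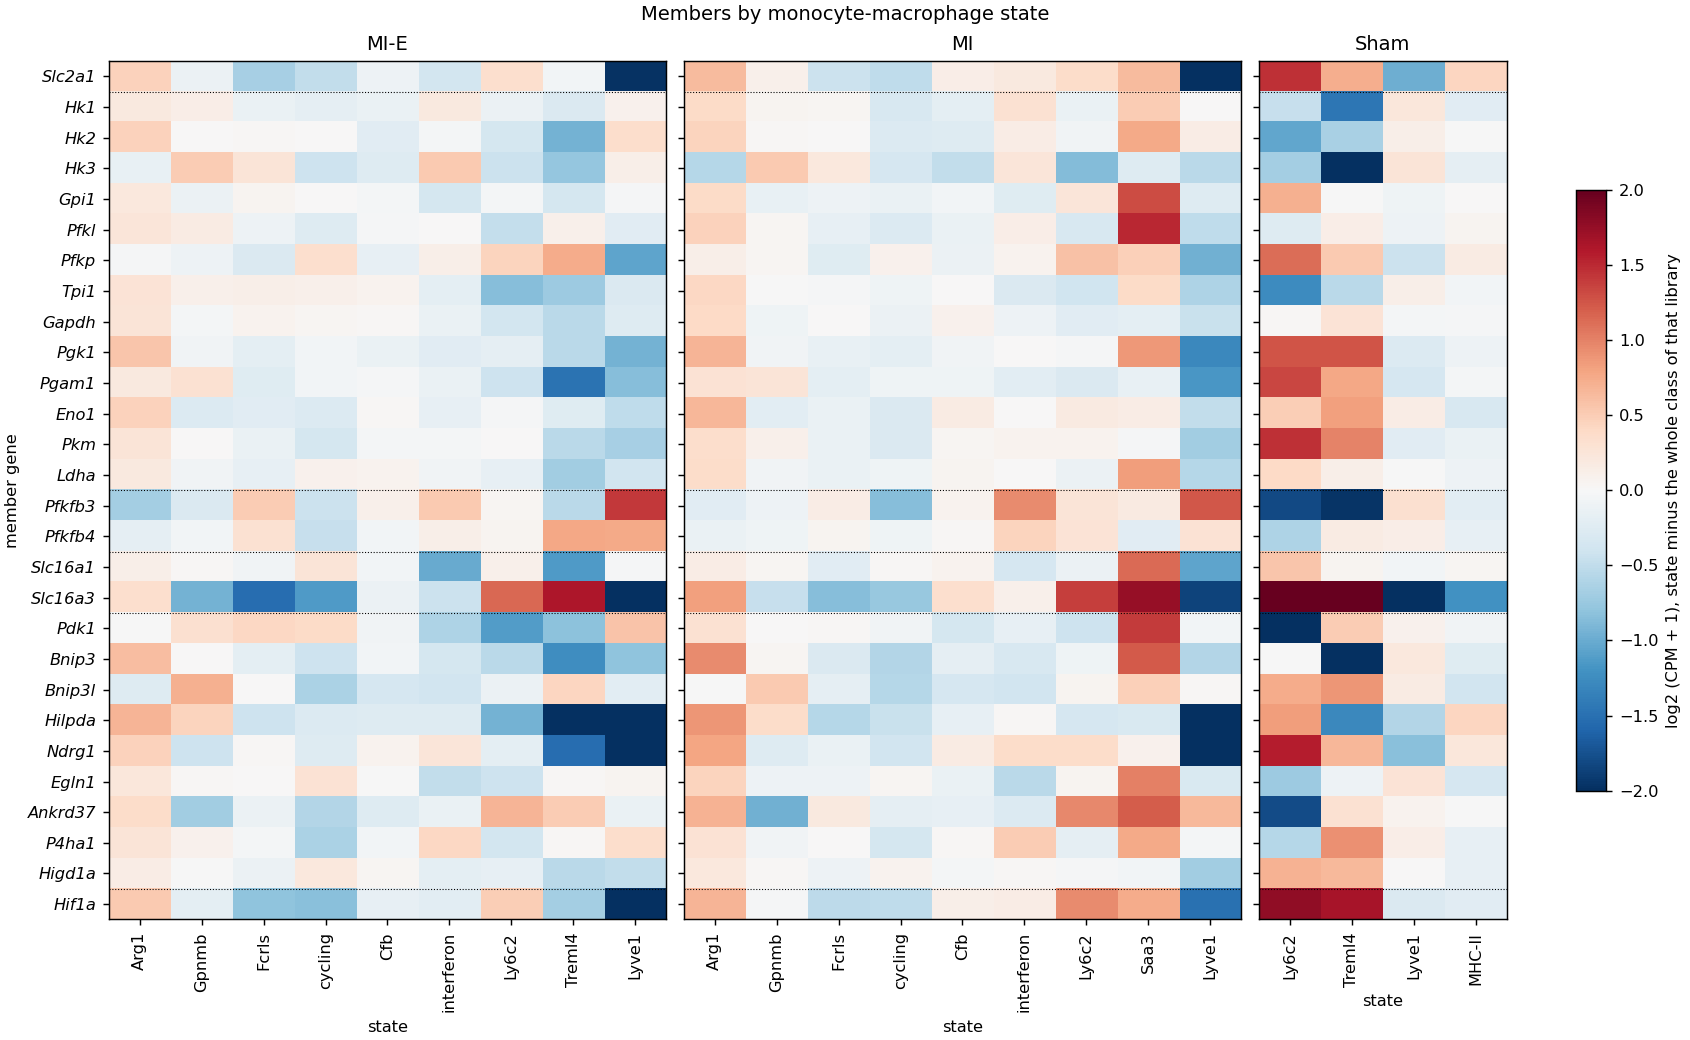
Members by monocyte-macrophage state in MI-E, MI and Sham, as log2(CPM + 1) in the state minus that of the whole class of the same library. States with at least 50 cells are shown; the MI Saa3 column and the Arg1 columns are red for most rows, and the Lyve1 columns of MI-E and MI are blue for Slc16a3 and Hif1a.

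The Ly6c2 monocyte state and the Lyve1 state stood far apart already in Sham. Slc16a3 had 273 CPM in the Ly6c2 state and 6.39 in the Lyve1 state of Sham, a ratio of 42.8 (32.4 to 57.2). Hif1a had 216 and 51.3 CPM there, and Slc2a1 had 51.3 and 8.64. Hk2 and Pfkfb3 went the other way, with 87.7 against 197 CPM for Hk2 and 15.9 against 73.3 CPM for Pfkfb3. In all, 8 of 18 glycolysis members were at least 1.5-fold higher and 6 lower in the Ly6c2 state of Sham, where 19.3% of all genes were higher and 38.3% lower. The Lyve1 state had the highest Pfkfb3 of all states in each library, with 57.4 CPM in MI-E, 51.6 in MI and 73.3 in Sham. The MHC class II state of Sham had 181 CPM of Hk2 and 50.5 CPM of Pfkfb3. Lyve1 cells numbered 94 in MI-E, 187 in MI and 1601 in Sham, and the part of cell numbers in the Hk2 and Pfkfb3 levels of the whole class was not tested.

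With the state held fixed, the list medians of MI over Sham were smaller than those over the class, 1.10 for glycolysis and 1.21 for hypoxia-induced members. The share of hypoxia-induced members at least 1.5-fold higher was not smaller. MI and Sham shared 2 states with at least 50 cells in each, Lyve1 and Ly6c2. In the Lyve1 state 7 of 18 glycolysis members were at least 1.5-fold higher in MI than in Sham and 0 lower (median 0.43), and 6 of 9 hypoxia-induced members were higher and 0 lower (median 0.67), where 20.7% of all genes were higher and 10.4% lower (median 0.15). In the Ly6c2 state 8 of 18 glycolysis members were higher and 0 lower (median 0.50), and 7 of 8 hypoxia-induced members were higher and 1 lower (median 1.13), where 22.3% of all genes were higher and 13.7% lower (median 0.08). Pgk1 was higher in MI in both states, with 146 against 60.7 CPM in the Lyve1 state and 351 against 177 CPM in the Ly6c2 state. Hilpda was likewise higher, with 101 against 46.9 CPM in the Lyve1 state and 355 against 126 in the Ly6c2 state. Slc2a1 was not, at 8.99 CPM in MI against 8.64 in Sham in the Lyve1 state (ratio 1.04) and 57.2 against 51.3 in the Ly6c2 state (ratio 1.12), with intervals that included 1. Pfkfb3 had a ratio of 0.704 in the Lyve1 state and 1.59 in the Ly6c2 state, and Hk2 had 0.670 and 1.29, so their lower level in MI did not extend to Ly6c2 cells. The summed dissociation and heat shock genes were at 14038 CPM in MI-E, 13056 in MI and 29896 in Sham in the Lyve1 state, and at 7867, 7048 and 6727 CPM in the Ly6c2 state, and their part in these differences was not tested.

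Between MI-E and MI, 8 states had at least 50 cells in each library, and members of each list went in either direction within them. Hilpda was lower in MI-E in 8 of 8 states, with ratios from 0.425 in the Ly6c2 state to 0.738 in cycling cells, and its interval lay below 1 in all 8. Bnip3 was lower in 8 of 8 with intervals below 1 in 8 (0.420 to 0.655), Higd1a in 8 of 8 with 7 such intervals (0.681 to 0.907), and P4ha1 in 7 of 8 with 7 (0.645 to 1.03). In the opposite direction, Gapdh and Pkm were higher in MI-E in 8 of 8 states with intervals above 1 in all 8, at ratios of 1.12 to 1.40 and 1.18 to 1.30. Slc16a3 was higher in 8 of 8 states with 7 intervals above 1 (1.18 to 1.60), and Slc2a1 in 8 of 8 with 6 (1.10 to 1.96). Ndrg1 was higher in 7 of 8 with 6 intervals above 1 (0.933 to 1.63), and Hif1a was higher in 5 and lower in 3 states (0.854 to 1.14). Other glycolysis members were mostly lower in MI-E: Eno1 in 8 of 8 states with 6 intervals below 1 (0.831 to 0.968), Hk2 in 7 with 6 (0.686 to 1.02), Ldha in 6 with 6 (0.826 to 1.07), Tpi1 in 6 with 4 (0.644 to 1.12) and Pgam1 in 6 with 3 (0.868 to 1.18). Pgk1 was higher in 7 of 8 states with 5 intervals above 1 (0.953 to 1.42). The Slc16a3 ratio was thus at most 1.60 in the 8 shared states, against 1.90 over the whole class. Ly6c2 cells numbered 1339 in MI-E and 359 in MI, and their part in the ratio over the class was not tested. The median over hypoxia-induced members was lowest in the Arg1 state (-0.64, with 5 of 10 members at least 1.5-fold lower and 0 higher, where 4.85% of all genes were lower and 5.22% higher) and in the Ly6c2 state (-0.61, with 4 of 8 lower and 0 higher, where 6.16% of all genes were lower and 4.67% higher), and highest in the Lyve1 state (-0.14).

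**Figure D4:**
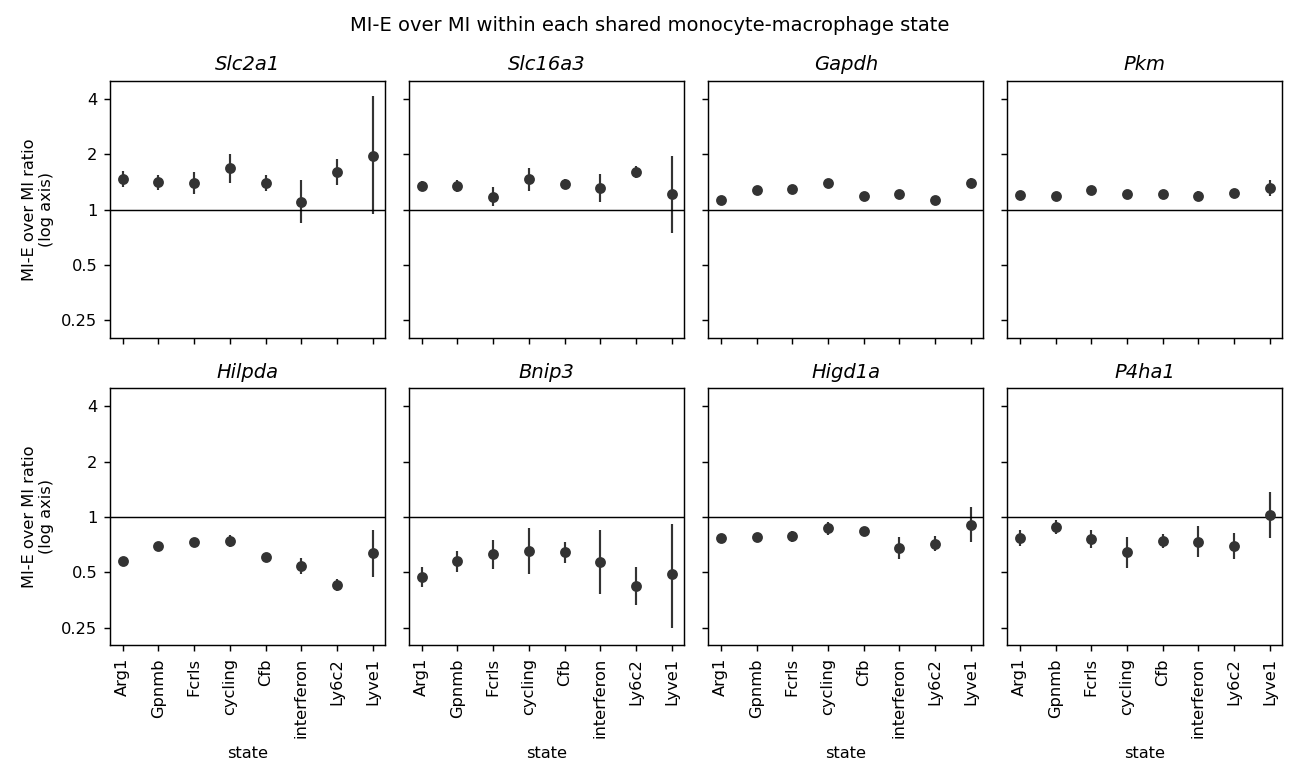
MI-E over MI ratios of CPM within each of the 8 shared monocyte-macrophage states for 8 members, on a log axis with 95% exact intervals for counting error. All points of Slc2a1, Slc16a3, Gapdh and Pkm lie above 1, all points of Hilpda, Bnip3 and Higd1a lie below it, and P4ha1 lies above it in the Lyve1 state alone (1.03).

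Across cell classes, neutrophil-like cells held the highest levels of 3 of the 4 transport genes and of Hilpda. In every library neutrophil-like cells were highest for Slc2a1, Slc2a3, Pfkfb4, Slc16a3, Hilpda and Egln3. Slc16a3 had 542 CPM in MI-E, 385 in MI and 888 in Sham neutrophils, and Slc2a3 had 81.8, 71.9 and 270.3 CPM. The next class for Slc2a3 was NK-like in MI-E, at 14.2 CPM, and T-like in MI, at 4.50 CPM. Monocyte-macrophage-like cells were highest for 7 glycolysis members in MI-E (Hk3, Tpi1, Gapdh, Pgk1, Pgam1, Eno1 and Pkm), for 6 in MI and for 1, Tpi1, in Sham, where dendritic-like cells were highest for 6. Fibroblast-like cells had the highest Hk2 in each library (261, 269 and 449.6 CPM in MI-E, MI and Sham), and endothelial-like cells the highest Ndrg1. Hif1a was highest in T-like cells in MI-E (337 CPM) and MI (275 CPM) and in neutrophil-like cells in Sham (264 CPM).

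**Figure D5:**
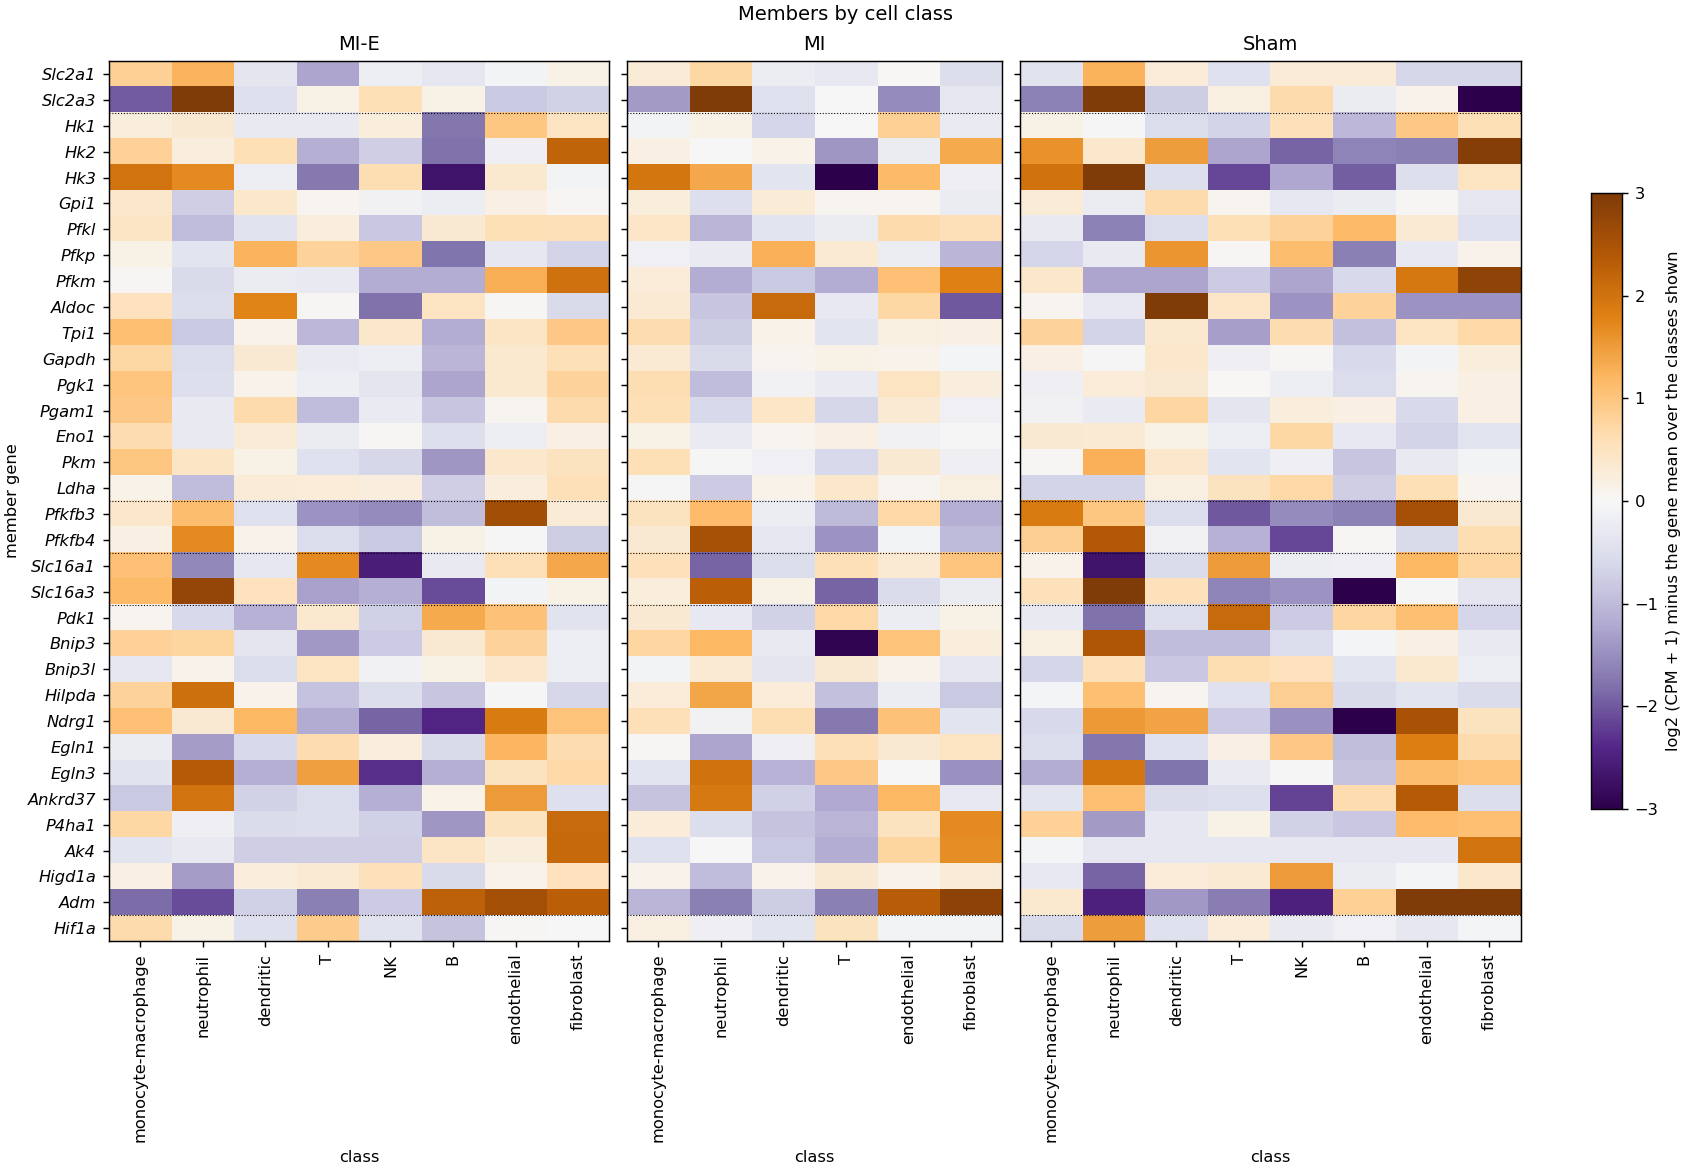
Members by cell class in MI-E, MI and Sham, as log2(CPM + 1) minus the mean of that gene over the classes shown. Classes with at least 50 cells in a library are shown, so NK-like and B-like cells are missing for MI; the neutrophil column is highest for Slc2a3 and Slc16a3 in each library.

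Between libraries the neutrophils did not follow the macrophages throughout. The class numbered 3013 cells in MI-E, 358 in MI and 423 in Sham, and different clusters held it: 397 of the Sham cells lay in a cluster led by Retnlg and S100a8, while clusters led by Cstdc4 and Asprv1 and by Mmp9 and Il23a held 1889 and 1099 of the MI-E cells and 154 and 186 of the MI cells. For MI over Sham 6 of 18 measured glycolysis members were at least 1.5-fold higher and 3 lower (median 0.35), where 41.6% of all genes were higher and 17.4% lower (median 0.36), which is close to the background. Hypoxia-induced members had 5 of 9 higher and 1 lower (median 1.19). The lowest ratios were those of Slc2a3 at 0.266 (0.196 to 0.356), Hk3 at 0.374 (0.241 to 0.567) and Slc16a3 at 0.434 (0.379 to 0.496). Hilpda was the highest, with 704 CPM in MI-E, 987 in MI and 158 in Sham, a ratio of 6.23 (5.16 to 7.56) for MI over Sham, and Hif1a had 199 CPM in MI-E, 173 in MI and 264 in Sham. For MI-E over MI 1 glycolysis member was higher and 3 lower, and 0 hypoxia-induced members were higher and 2 lower, where 10.5% of all genes were higher and 13.5% lower. The neutrophil markers summed to 63584, 51968 and 157279 CPM in MI-E, MI and Sham, and their part in these ratios was not tested.

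Hilpda was lower in MI-E than in MI in all 6 classes with at least 50 cells in both libraries. The ratios were 0.654 in monocyte-macrophage-like, 0.714 in neutrophil-like, 0.412 in dendritic-like, 0.463 in T-like, 0.511 in endothelial-like and 0.519 in fibroblast-like cells, each with an interval below 1. Bnip3 was lower as well in neutrophil-like (0.414), dendritic-like (0.496), endothelial-like (0.470) and fibroblast-like cells (0.397). In T-like cells Bnip3 was below the level used. Macrophage RNA was present in the other classes: the summed macrophage markers of neutrophil-like cells were 9.53%, 7.87% and 2.97% of the macrophage level in MI-E, MI and Sham, and those of T-like cells 5.35%, 2.60% and 0.844%. Endothelial-like cells were at 47.6%, 55.5% and 10.6%. Hilpda reached 241%, 221% and 224% of the macrophage level in neutrophil-like cells of MI-E, MI and Sham, and 57.2%, 73.2% and 80.5% in endothelial-like cells. The part of macrophage RNA in the Hilpda levels of other classes was not tested.

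Dendritic-like cells, 548, 357 and 123 in MI-E, MI and Sham, had macrophage markers at 19.98%, 15.6% and 3.42% of the macrophage level in the same libraries, and their part in the values below was not tested. For MI over Sham 10 of 18 glycolysis members were higher and 1 lower (median 0.69), and 5 of 8 hypoxia-induced members were higher and 0 lower (median 0.68), where 31.3% of all genes were higher and 11.9% lower. Hilpda had 184 CPM in MI-E, 447 in MI and 77.8 in Sham there, and Tpi1 had 143, 225 and 97.0. For MI-E over MI 1 glycolysis member was higher and 2 lower, and 0 hypoxia-induced members were higher and 2 lower, where 8.75% of all genes were higher and 5.76% lower. T-like cells, 269, 73 and 714 in number, had 12 of 16 glycolysis members higher and 2 lower in MI than in Sham (median 0.88), where 36.6% of all genes were higher and 16.6% lower, with Tpi1 at 65.1 CPM in MI-E, 158 in MI and 29.3 in Sham. For MI-E over MI the T-like cells had 3 glycolysis members higher and 5 lower, where 23.6% of all genes were higher and 19.5% lower. Pdk1 was lower in T-like cells of MI-E (11.1 CPM) than of Sham (32.3 CPM). NK-like and B-like cells had under 50 cells in MI and were compared between MI-E and Sham. In NK-like cells 7 of 16 glycolysis members were higher and 1 lower (median 0.48), where 21.7% of all genes were higher and 22.4% lower, and in B-like cells 5 of 17 were higher and 1 lower (median 0.46), where 14.8% were higher and 14.6% lower. The hypoxia-induced Bnip3l (0.459) and Egln1 (0.535) were among the 3 lowest ratios in NK-like cells. Adm (2.99), Pdk1 (1.95) and Hilpda (1.89), also hypoxia-induced, were the 3 highest in B-like cells.

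Endothelial-like and fibroblast-like cells passed the CD45 sort in small numbers, 263, 83 and 346 and 186, 74 and 77 in MI-E, MI and Sham. Macrophage markers in fibroblast-like cells were at 17.7%, 22.0% and 27.2% of the macrophage level in these libraries, and their part was not tested. In endothelial-like cells 11 of 19 glycolysis members were higher in MI than in Sham and 2 lower (median 1.17), where 26.4% of all genes were higher and 26.7% lower, while 3 of 11 hypoxia-induced members were higher and 4 lower. Adm had 33.6 CPM in MI-E, 14.8 in MI and 66.0 in Sham there, Pfkfb3 had 99.9, 24.1 and 93.1, and Egln1 had 100.2, 53.7 and 173. These 3 genes had the lowest ratios of MI over Sham in endothelial-like cells and the highest of MI-E over MI, at 2.27 (1.33 to 4.12) for Adm, 4.15 (2.78 to 6.45) for Pfkfb3 and 1.87 (1.41 to 2.51) for Egln1. Both ratios rest on the same 83 MI cells, so these extremes are not independent. The dissociation and heat shock genes of endothelial-like cells summed to 15669 CPM in MI-E, 9426 in MI and 35742 in Sham, and with the macrophage marker shares above their part was not tested. In fibroblast-like cells 11 of 19 glycolysis members were higher in MI than in Sham and 5 lower, where 23.9% of all genes were higher and 26.6% lower, and P4ha1, in its role in collagen synthesis, was highest in this class in MI-E (159 CPM) and MI (206 CPM), with 58.4 CPM in Sham. Ndrg1 was higher in MI-E fibroblast-like cells (79.3 CPM) than in those of MI (30.1 CPM), a ratio of 2.63 (1.85 to 3.85). For MI-E over MI this class had 3 glycolysis members higher and 0 lower, and 1 hypoxia-induced member higher and 4 lower, where 15.7% of all genes were higher and 9.55% lower.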

How the data were processed

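Per the labels' protocols, CD45-sorted heart cells were made into 10x Genomics 3′ v3.1 libraries. Per the file headers and the submitters' processing notes, the authors' deposited values are raw UMI counts per gene and barcode made with Cell Ranger 5.0.1 on mm10; no source used here names the annotation release, and the matrices hold only barcodes kept by that tool. From the counts, barcodes under 200 genes or over 10% mitochondrial UMIs were removed, and Scrublet doublets removed: its automatic threshold marked 291 in MI-E but under 0.5% in MI and Sham, where the expected rate (0.8% for each 1000 barcodes) marked 662 and 1032. Clusters came from scanpy 1.11.5 (2000 variable genes without the members and related lists, 30 components, 15 neighbours, Leiden resolution 1, seed 0). Clusters were named from marker lists; the thresholds and the genes after which states are called were set after the clusters were seen, and the Fcrls, Saa3 and Cfb states are named by leading genes alone. Unnamed clusters (553, 504 and 1147 cells in MI-E, MI and Sham) were left out of the classes.

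UMIs were summed per class and library. CPM has a 95% exact Poisson interval and a ratio the exact conditional binomial interval; both cover counting error only. List medians use log2(CPM + 1), over genes with a mean of at least 5 CPM; a called difference is at least 1.5-fold. The monocyte-macrophage sums rest on 73712746, 75179658 and 21360510 UMIs in MI-E, MI and Sham. With 1 library per group no p-value was computed. The ratio and its interval were tested on simulated data. In other classes the 3 highest and 3 lowest ratios of a comparison among members with at least 20 CPM were named, with Hif1a; of each related list, up to 4 genes with the largest ratios. Other values named by class or state, such as those of Pgk1 and Hilpda within states and of Bnip3 in other classes, were chosen after they were seen. The members and lists were chosen with earlier results of these data known. Promoter windows are RefSeq's; positions of all 34 members were matched in GENCODE M21.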

Additional observations from a re-analysis of the deposited data

Results flagged for a closer look

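A member was set apart when it was at least 1.5-fold higher in an infarct library than in Sham in monocyte-macrophage-like cells and at least 1.5-fold lower in another class, or the other way round, with both counting intervals excluding 1. The differences between classes themselves were not tested, and each rests on 1 library per group. Log2 ratios are on the log2(CPM + 1) scale.

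Neutrophil-like cells gave 6 of the 9 such cases. Hk3, the myeloid hexokinase, had a log2 ratio of -1.40 for MI over Sham there, with 32 UMIs in MI and 85 in Sham, and of 0.96 in monocyte-macrophage-like cells. For MI-E over Sham its values were -1.17 and 0.89. Slc16a3, the lactate exporter, had -1.20 in neutrophil-like and 1.59 in monocyte-macrophage-like cells for MI over Sham, and -0.71 and 2.50 for MI-E over Sham. Hif1a had -0.61 in neutrophil-like cells for MI over Sham, from 142 UMIs in MI and 215 in Sham. Bnip3 had -1.56 in neutrophil-like and 0.73 in monocyte-macrophage-like cells for MI-E over Sham. The Sham neutrophils lay mostly in another cluster than those of the infarct libraries.

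Pdk1, which limits the entry of pyruvate into mitochondria, had -1.46 in T-like and 0.65 in monocyte-macrophage-like cells for MI-E over Sham, with 13 UMIs in MI-E and 86 in Sham T-like cells. Hk2 went the other way in endothelial-like cells: its log2 ratio was 2.25 for MI over Sham, from 97 UMIs in MI and 20 in Sham, and 1.42 for MI-E over Sham, from 156 UMIs in MI-E, beside -0.60 and -0.86 in monocyte-macrophage-like cells. Macrophage markers in endothelial-like cells were at 47.6%, 55.5% and 10.6% of the macrophage level in MI-E, MI and Sham, and their part in the Hk2 values was not tested.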

How the results depend on the processing

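Both list medians against Sham, and the hypoxia-induced median of MI-E over MI, kept their sign under all 14 alternatives; the glycolysis median of MI-E over MI (-0.02 to 0.08) kept it under 12. Holding states fixed (mean over shared states) moved the glycolysis medians against Sham most. The glycolysis median was then 0.53 in MI over Sham, against 1.10 over the class, and 0.85 in MI-E over Sham, with 0 and 1 members lower by 1.5-fold (all genes 7.25% and 12.5%). Then 0 were higher in MI-E than in MI (all genes 2.17%), where Slc2a1 had 0.55 and Slc16a3 0.43. The hypoxia-induced median was 0.98 for MI over Sham, and 1 member was lower for MI-E over Sham (all genes 12.5%). There Pfkfb3 changed sign, to 0.070 in MI over Sham and 0.012 in MI-E over Sham, as did Slc16a1, at -0.022 in MI over Sham; the cause was not tested.

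For the glycolysis median of MI over Sham, TMM factors gave 1.27 with 1 member lower, a pseudocount of 10 CPM 0.98, no filter on low genes 0.96, leaving out interferon, cycling and monocyte states 1.18, each cell weighing the same 1.19, thinning to 1500 UMIs 1.23, and leaving out the Arg1 state, an alternative chosen after the data were seen, 1.04. For MI-E over Sham, TMM gave 1.37, the pseudocount and no filter 1.01 each. TMM moved the median of all genes for MI over Sham to 0.30, against 0.14, and the shares higher and lower to 34.3% and 13.7%. The hypoxia-induced median was 0.63 with the pseudocount and 0.93 with no filter (1 member lower, all genes 35.4%) for MI over Sham; -0.30 with the pseudocount, -0.43 with each cell weighing the same and -0.48 after thinning for MI-E over MI, where no filter gave 5 lower (all genes 19.2%); and 0.31 with the pseudocount for MI-E over Sham, where no filter gave 1 lower (all genes 36.6%).

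No paired analysis was possible because each group has 1 library. Depth limits members under 5 CPM, classes under 100 cells in MI, the Sham Ly6c2 state of 141 cells and the MI-E Treml4 state of 52 cells.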

Other observations

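Glycogen and glucose-forming genes, read in monocyte-macrophage-like cells as a list apart from the members, had 5 of 10 genes at 5 CPM or more. For MI over Sham 2 were at least 1.5-fold higher and 0 lower, with a median log2 ratio of 0.30, where 26.0% of all genes were higher and 17.3% lower (median 0.14). Pygl, the glycogen phosphorylase known from liver and white blood cells, had 27.5 CPM in MI-E, 27.7 in MI and 7.35 in Sham, a ratio of 3.77 (95% interval 3.21 to 4.46) for MI over Sham. Ugp2, which makes the UDP-glucose used for glycogen, had 66.4 CPM in MI-E, 76.7 in MI and 39.9 in Sham. Both genes were thus higher in each infarct library than in Sham.

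Genes of the machinery that controls HIF had 8 of 11 measured, with 4 higher and 0 lower for MI over Sham and a median of 0.40, beside the same shares over all genes. Elob, a subunit of the ubiquitin ligase that marks HIF-1α for degradation, had 678 CPM in MI-E, 864 in MI and 395 in Sham, and Rbx1, another subunit, had 412, 523 and 275 CPM in the same libraries. A list of other glycolysis genes had 6 of 15 measured, with 3 higher and 1 lower and a median of 0.49. The 1 of 6 lower is close to the 17.3% of all genes. Aldoa, an aldolase gene whose symbol is not unique in the matrices, is outside the lists. Its main entry had 759 CPM in MI-E, 750 in MI and 250 in Sham. Among further HIF targets, Mif, a cytokine, had 485 CPM in MI-E, 623 in MI and 122 in Sham, and Bhlhe40, a transcriptional repressor, had 151, 119 and 22.6 CPM. Mif thus shared the order of Hilpda and Bnip3, and Bhlhe40 that of Slc2a1, Slc16a3 and Hif1a.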
